A study of Rattus norvegicus with 4 samples.

Results

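Intermediate filament genes and genes of secreted epithelial injury markers were described in glomeruli of 4 male Wistar rats given Adriamycin (ADR, that is doxorubicin) by intravenous injection; this anthracycline injures podocytes and produces a nephrotic syndrome. The set was chosen by symbol and named 9 genes: the filament genes Des, Vim, Nes, Krt8, Krt18 and Krt19, and the secreted marker genes Lcn2, Spp1 and Clu. Of these, 8 were found among the 13261 genes used, each under 1 Ensembl identifier, and Krt19 was not analysed here. The podocyte genes Synpo and Nphs1 served as references for the order of the animals.

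The animals formed a single group. They weighed about 150 to 175 g, their glomeruli were isolated with sieves, and polyadenylated RNA was sequenced in stranded libraries. Protocols mention day 11 and day 21 without saying which applied to these rats, and give no dose for this group. No control animals were analysed here, so the levels carry no direction relative to health, and every comparison is between the 4 ADR animals, numbered as replicates 1 to 4. Nothing in the labels says more about the animals than that they are separate samples, so the tests measure the spread between these samples. Depth over the 13261 genes was 13566962, 16207027, 15348629 and 15244063 reads in replicates 1 to 4. Each deposited value was a log2 of reads scaled to a common total per library, CPM, and the whole reads behind it were recovered from its steps. Mitochondrial protein-coding genes, 13 in number, took 7.46% of reads in replicate 1, 12.5% in replicate 2, 9.34% in replicate 3 and 7.56% in replicate 4. CPM values take no account of how long a transcript is, so levels are compared between animals and not between genes; where a list is given from its lowest to its highest CPM, that ranks scaled reads, not transcript levels. In whole glomeruli, fewer cells of a type and less RNA per cell cannot be told apart.

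Intermediate filaments are ropes of coiled-coil proteins that give cells mechanical strength, and each cell type assembles its own kind. Desmin and vimentin are filaments of muscle and mesenchymal cells, nestin is a filament of mature podocytes, and keratins pair an acidic with a basic chain in epithelia. In the glomerulus, podocytes hold vimentin and nestin, mesangial cells hold desmin, and desmin in podocytes is a long-used sign of their injury in rats. Lipocalin 2 (Lcn2, also called NGAL), osteopontin (Spp1) and clusterin (Clu) are secreted proteins that injured tubules are known to release. Synaptopodin (Synpo) is an actin-associated protein of podocyte foot processes, and nephrin (Nphs1) builds the slit diaphragm.

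The starts of 4 filament genes are shown because they form 2 related pairs whose ratio of reads differed between animals, as described further on. The pairs are the keratin partners Krt8 and Krt18, and the type III filament genes Des and Vim. The 120 bases before the transcription start come from RefSeq on build GRCr8, which had a promoter entry for 7 of the 9 genes. They are read in the direction of the gene, and capitals mark matches on either strand to the TATA box TATAAA or the GC box GGGCGG. The windows of Nes, Lcn2 and Spp1 overlap the annotated gene and are not shown.
Des (chr9:84299506-84299625, plus strand): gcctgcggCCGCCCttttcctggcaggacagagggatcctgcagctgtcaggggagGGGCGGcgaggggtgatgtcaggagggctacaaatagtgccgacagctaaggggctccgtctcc
Vim (chr17:81577141-81577260, plus strand): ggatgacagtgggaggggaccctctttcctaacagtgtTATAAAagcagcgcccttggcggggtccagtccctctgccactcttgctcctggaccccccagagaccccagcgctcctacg
Krt8 (chr7:135010340-135010459, minus strand): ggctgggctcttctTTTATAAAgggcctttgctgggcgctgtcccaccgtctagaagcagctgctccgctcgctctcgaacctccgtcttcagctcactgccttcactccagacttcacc
Krt18 (chr7:135036048-135036167, plus strand): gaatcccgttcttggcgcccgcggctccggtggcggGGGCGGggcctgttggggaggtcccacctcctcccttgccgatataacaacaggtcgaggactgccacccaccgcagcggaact
Among these 4 genes, TATAAA was found before Vim and Krt8, and in 6.66% of 33469 promoter windows of this length. In Krt8 the matches on the 2 strands overlap. GGGCGG was found before Des and Krt18, and in 23.7% of windows. These are matches of letters only. Krt8 and Krt18 lie next to each other on chromosome 7 of that build, with 0 protein-coding genes between them.

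Nes, which encodes nestin (ENSRNOG00000018681), was the only gene of the set that was lowest in replicate 2. It had 2220.4, 1484.9, 1824.9 and 2110.1 CPM in replicates 1 to 4, a mean of 1910.1 ± 328.8 (SD, n = 4). The order from high to low was replicate 1, 4, 3, 2, the order also seen for Synpo and Nphs1, and exact Poisson intervals of neighbours in it did not overlap. Synpo had 780.2, 203.5, 328.3 and 654.8 CPM, a 3.83-fold range. Nphs1 had 1683.2, 903.6, 1370.3 and 1583.7 CPM, a 1.86-fold range. Nes had a 1.5-fold range. Without replicate 2 the ranges were 2.38-fold for Synpo, 1.23-fold for Nphs1 and 1.22-fold for Nes, so the wider range of Nphs1 beside Nes rested on that animal.

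Within each library, where scaling between libraries plays no part, Nes stayed close to several podocyte genes. The log2 difference of Nes minus Tcf21, a podocyte transcription factor gene, was 4.28, 4.34, 4.39 and 4.36 in replicates 1 to 4. Its SD of 0.05 was the smallest over the 19 podocyte genes listed, and that of Magi2, a scaffold gene, was the largest at 0.68. Nes minus Nphs1 was 0.40, 0.41 and 0.41 in replicates 1, 3 and 4 and 0.72 in replicate 2. Nes minus Synpo ran from 1.51 in replicate 1 to 2.87 in replicate 2. The log2 ratio of Nes to Tcf21 thus spanned 0.12 between animals in which that of Nes to Synpo spanned 1.36. Of the 17 podocyte genes other than Synpo and Nphs1, 14 had the order of Nes, the exceptions being Ddn, Foxc2 and Cdkn1c. All but Cdkn1c, that is 16, were lowest in replicate 2. For comparison, 9.44% of all genes had this order in all 6 pairs of animals, and 31.5% were lowest in replicate 2. All but Actn4, Foxc2 and Cdkn1c, again 14, had a larger SD of log2 CPM than the 0.26 of Nes, while 69.7% of all genes had a smaller one.

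**Figure D1:**
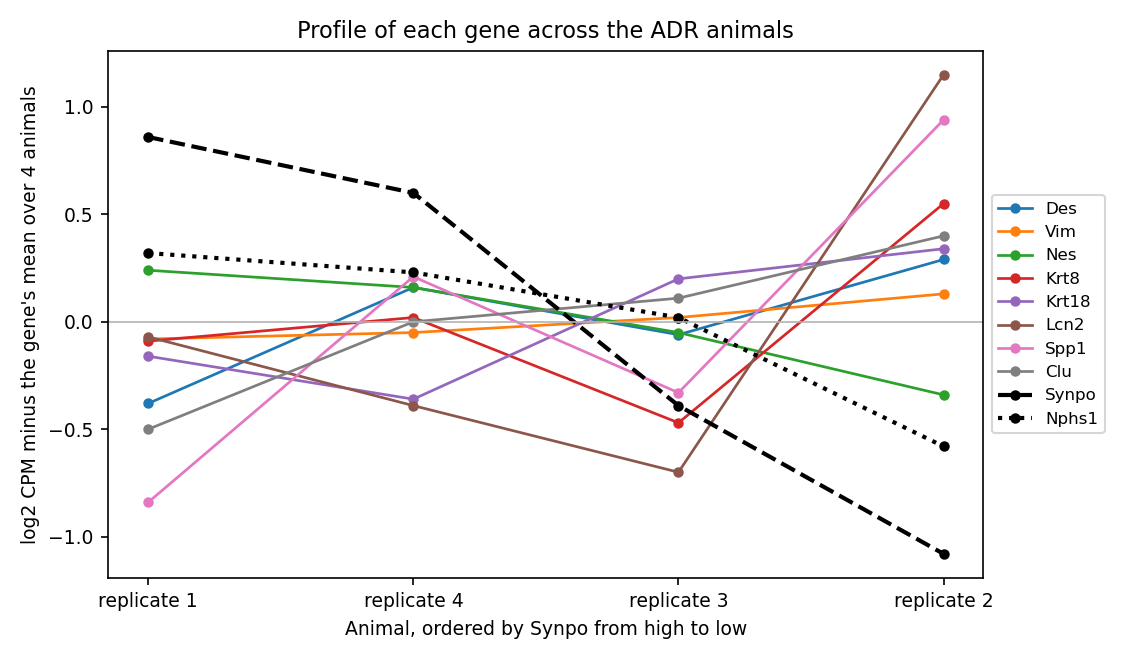
Profile of each of the 8 genes and of Synpo and Nphs1 across the ADR animals, as log2 CPM minus the gene's own mean (vertical axis), with animals ordered by Synpo (horizontal axis); lines join points of a gene and imply no sequence in time. Nes declines from left to right with Synpo and Nphs1, and the other 7 genes are highest in replicate 2.

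The other 7 genes, Des, Vim, Krt8, Krt18, Lcn2, Spp1 and Clu, were all highest in replicate 2, the animal with the lowest Synpo and Nphs1. Of all genes used, 21.3% were highest there. The number was 7 with trimmed-mean and with median-of-ratios factors as well. It describes this animal, since each gene's position is a single value in a single library. Replicate 2 also had the highest share of mitochondrial reads. With totals taken without mitochondrial genes, the number highest there was again 7. Any other part of that share in the result was not tested.

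Des (ENSRNOG00000019810), the desmin gene, had 701.3, 1116.5, 871.8 and 1014.0 CPM in replicates 1 to 4. Replicate 2 stood above replicate 1 by 1.59-fold, replicates 3 and 4 lay between them, and the mean was 925.9 ± 180.2 (SD, n = 4). Vim (ENSRNOG00000018087), the vimentin gene, had 826.4, 956.0, 882.4 and 844.9 CPM, a mean of 877.4 ± 57.3. Its coefficient of variation of 6.53% was the smallest of the 8 genes, and the Poisson intervals of replicates 1 and 4 overlapped. The log2 difference of Des minus Vim was -0.24, 0.22, -0.02 and 0.26 in replicates 1 to 4. Desmin was thus low relative to vimentin in replicate 1 and high in replicates 2 and 4, over a 1.41-fold range.

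Krt8 (ENSRNOG00000009779), the basic keratin of simple epithelia, had 56.4, 88.1, 43.5 and 61.0 CPM in replicates 1 to 4, a mean of 62.3 ± 18.8 (SD, n = 4). Replicate 2 was 2.02-fold above replicate 3, and replicates 1 and 4 overlapped in their Poisson intervals. Krt18 (ENSRNOG00000047393), its acidic partner, had only 46, 78, 67 and 45 reads, or 3.39, 4.81, 4.36 and 2.95 CPM. Each neighbour in its order overlapped the next. The ratio of Krt8 to Krt18 reads was 16.6, 18.3, 9.97 and 20.7 in replicates 1 to 4. It was lowest in replicate 3, where Krt8 was at its lowest. The ratio rests on few Krt18 reads, and no interval was computed for it. RefSeq names 6 Krt18 pseudogenes and 1 Krt18-like gene, and 1 Krt8 pseudogene. How the counting divided reads among such copies is not given in the sources used here, so the values of both genes, and the ratio, are uncertain. Krt7, another keratin of simple epithelia, had 62.1, 75, 59.2 and 60.5 CPM and was likewise highest in replicate 2. The keratin gene Krt10 had 4.64, 3.7, 4.3 and 4.46 CPM, and Krt80 had 20.8, 15.8, 24.8 and 19.8 CPM. Both were lowest in replicate 2.

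Lcn2 (ENSRNOG00000013973), an iron-siderophore binding protein, had 170, 472, 124 and 153 reads, or 12.5, 29.1, 8.08 and 10.0 CPM, in replicates 1 to 4. Replicate 2 lay apart from the other 3 animals, 3.59-fold above the lowest, while those 3 spanned 1.55-fold and neighbours among them overlapped. Spp1 (ENSRNOG00000043451), a phosphoprotein of the extracellular matrix and ligand of integrins and CD44, had 550.3, 1885.6, 779.0 and 1140.0 CPM. Its 4 Poisson intervals were all separate, and the range was 3.43-fold, or 2.07-fold without replicate 2. Clu (ENSRNOG00000016460), an extracellular chaperone, had 376.7, 702.6, 574.7 and 533.6 CPM, a mean of 546.9 ± 134.3 (SD, n = 4). Here replicate 1 was the lowest and replicate 2 was 1.86-fold above it.

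The 3 secreted markers did not move as a unit. The log2 difference of Lcn2 minus Spp1 was -5.45, -6.02, -6.59 and -6.82 in replicates 1 to 4, a 2.59-fold range. That of Clu minus Spp1 was -0.55, -1.42, -0.44 and -1.10, a 1.98-fold range. Replicate 1, lowest of all for Spp1 and Clu, was second for Lcn2.

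**Figure D2:**
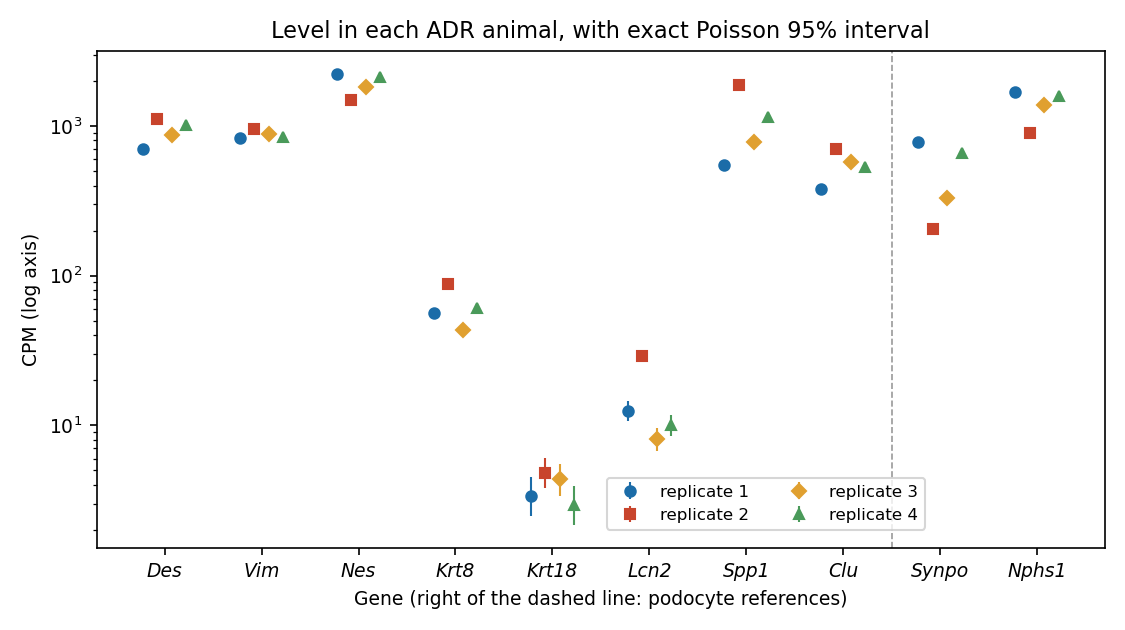
CPM of each gene (logarithmic vertical axis) in each of the 4 ADR animals, with vertical bars for the exact Poisson 95% interval, which covers counting error only; Synpo and Nphs1 stand to the right of the dashed line. Replicate 2 is the top point for 7 of the 8 genes and the bottom point for Nes, Synpo and Nphs1, and intervals are wide only for Krt18 and Lcn2.

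The order of the animals was then set against that of the references, which shared the order replicate 1, 4, 3, 2. Among the 6 pairs of animals, Vim and Clu were ordered the opposite way in 6, as were 8.19% of all genes. Vim dropped to 5 with trimmed-mean or median-of-ratios scaling, since replicates 1 and 4 exchanged places. Des, Krt18 and Spp1 were opposite in 5 pairs, so that 5 of the 8 genes reached at least 5 pairs, against 24.3% of all genes. Des and Spp1 shared the order replicate 2, 4, 3, 1 and departed from a full reversal in the pair of replicates 3 and 4. Krt8 was opposite in 4 pairs, Lcn2 in 3 and Nes in 0. With replicate 2 left out and 3 pairs remaining, Vim and Clu were opposite in 3, Des, Spp1 and Krt18 in 2, Krt8 in 1, and Lcn2 and Nes in 0. The pairs in which Lcn2 was opposite to the podocyte genes thus all involved replicate 2. With only 4 animals no correlation across them was computed.

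As ratios within a library, the contrasts with Synpo were wide. Spp1 minus Synpo was -0.50, 3.21, 1.25 and 0.80 on the log2 scale in replicates 1 to 4, a 13.1-fold range. The ranges were 9.31-fold for Lcn2, 7.15-fold for Clu, 6.10-fold for Des, 5.99-fold for Krt8, 5.42-fold for Krt18 and 4.43-fold for Vim. Against Nphs1 they were narrower, at 6.38-fold for Spp1, 5.45-fold for Lcn2, 3.47-fold for Clu, 3.07-fold for Krt8, 2.97-fold for Des, 2.84-fold for Krt18 and 2.15-fold for Vim. Each of these 7 ratios was highest in replicate 2, which follows from the levels of the 7 genes and of both references there. Without that animal the ranges against Synpo ran from 1.61-fold for Lcn2 to 3.62-fold for Clu, with 3.36-fold for Spp1. Against Nphs1 they then ran from 1.21-fold for Krt8 to 2.20-fold for Spp1, and the ratio of Nes to Nphs1 had a range of 1.01-fold.

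Variation beyond counting error was found for all 8 genes (chi-square test on recovered reads with 3 degrees of freedom, Benjamini-Hochberg over all genes), where 69.5% of all genes passed. Chi-square values ran from 172.0 for Vim to 14064.2 for Spp1 among the 7 genes other than Krt18. Krt18 had 8.71 and an adjusted p of 0.0482, and it was not called without replicate 2 or without replicate 4. This test compares libraries and says that the animals, or their samples, differed by more than the counting of reads.

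The spread of each gene was next compared with that of other genes at its abundance, by limma's trend fitted to the deposited log2 values. The test called 0 of the 8 genes and 0.0% of all genes. It had few degrees of freedom, 3.77 for the trend, and the smallest limma adjusted p of any gene was 0.834. A count of 0, here and in the lists below, therefore does not separate these genes from others. At an unadjusted p under 0.05, 5.44% of all genes passed, and with them Lcn2, Spp1 and Krt8. The limma adjusted p was 0.913 for each of these 3 genes. With SDs of 0.81 for Lcn2 and 0.76 for Spp1 on the log2 scale, 98.9% and 98.7% of genes had a lower SD. Without replicate 2 the SDs were 0.32 and 0.53. The median SD was 0.35 over the 8 genes and 0.18 over all genes. Vim lay at the other end, with an SD of 0.09, and 16.6% of genes had a lower SD. A count-based statistic on the recovered reads at a fixed dispersion trend, added after limma's result was known, called 7.53% of all genes and 3 of the 8, again Krt8, Lcn2 and Spp1. Without replicate 2 it called Spp1 alone, and without replicate 3 it called Lcn2 and Spp1. The same genes were left at limma's unadjusted p under 0.05 in each case.

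**Figure D3:**
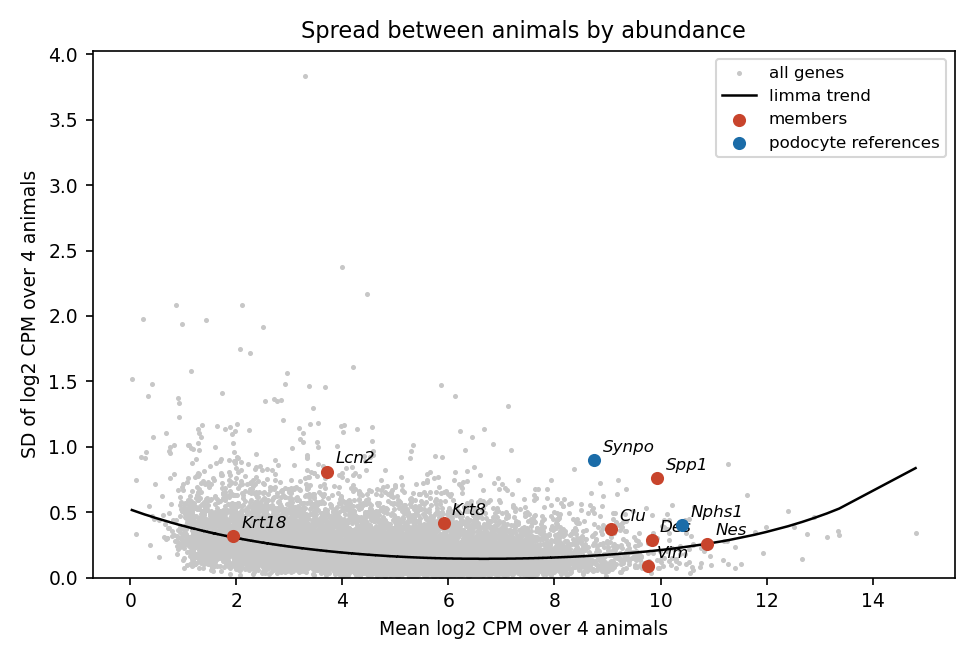
SD of log2 CPM over the 4 animals (vertical axis) against mean log2 CPM (horizontal axis) for all genes in grey, with limma's abundance trend as a line, the 8 genes in red and the podocyte references in blue. Lcn2, Spp1 and Synpo lie well above the trend, Nes and Krt18 lie on it, and Vim lies below it.

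The genes with the most similar profiles were found by the root mean square difference of centred log2 CPM over the 4 animals, among 10933 coding genes with a mean of at least 100 reads. With so many genes and only 4 animals, close matches are expected for any gene of small spread. For Nes, Mxra8 and LOC100910143 were both at 0.008. For Spp1 the closest were C4a, a complement gene, Fga, the fibrinogen alpha chain gene, and Pamr1, at 0.115, 0.133 and 0.179. C4a had 43.0, 132.6, 48.7 and 81.4 CPM in replicates 1 to 4. For Lcn2 they were the desmosomal gene Pkp1, the collagen gene Col11a1 and Plekhh1, at 0.174, 0.176 and 0.222, beside the 0.70 by which Lcn2 itself deviated from its mean. For Krt8 they were Bhmt, Rin2 and AABR07049085.1, for Krt18 Nxpe1, Anxa3 and Shf, and for Clu Psmc3ip, Wnt5b and Pdgfra. For Des they were Sesn2, Rpusd3 and Tmem39b, and for Vim Zbtb5, Mrpl44 and Rpl11.

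Other members of the filament family differed in their order. Of 30 further intermediate filament genes listed, 11 were in the table, 10 varied beyond counting error, and limma called 0, with 1 at an unadjusted p under 0.05, which was also the 1 called at the fixed trend. Over all genes the shares were 69.5% beyond counting error, 5.44% at limma's unadjusted p and 7.53% at the fixed trend. The gene called was Nefm, a neurofilament subunit, with 11.4, 5.92, 4.82 and 2.69 CPM. Of the 11, 3 were highest in replicate 2, namely Krt7, Sync and the lamin A/C gene Lmna, a share near the 21.3% of all genes. Lowest there were also 3, namely Krt10, Krt80 and Synm, beside 31.5% of all genes. The list ran from Nefh at 2.11 ± 0.81 CPM to Lmna at 515.2 ± 29.7 CPM (SD, n = 4). Synm, whose product synemin assembles with desmin and vimentin, was lowest in replicate 2, with 132.1, 124.4, 176.5 and 180.0 CPM in replicates 1 to 4. Among 12 genes of filament linkers and desmosomes in the table, 4 were highest in replicate 2 (Evpl, Pkp4, Dsg2 and Hspb1) and 5 lowest (Dst, Macf1, Dsp, Ppl and Jup), against 21.3% and 31.5% of all genes. Of these 12, 11 varied beyond counting error, limma called 0 with 0 at an unadjusted p under 0.05, and the fixed-trend statistic called 0, beside the same shares of all genes. They ran from Macf1 at 1481.5 ± 123.1 CPM to Dsg2 at 5.09 ± 1.58 CPM. The small heat shock protein gene Hspb1 had 124.2, 210.0, 198.6 and 160.9 CPM.

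Of 15 receptor genes listed for the 3 secreted proteins, 14 were in the table. In replicate 2, 8 were lowest and 4 were highest, the latter being Slc22a17, Cd44, Itgb6 and Itga5, against 31.5% and 21.3% of all genes. Variation beyond counting error was called for 12. Limma called 0, with Itgav, Itgb5 and Itga8 at an unadjusted p under 0.05, and the fixed-trend statistic called 5, these 3 with Lrp2 and Itga4. Over all genes these tests called 69.5% beyond counting error, 5.44% at limma's unadjusted p and 7.53% at the fixed trend. The list ran from Itgb3 at 3.98 ± 0.87 CPM to Itgb1 at 1590.0 ± 278.9 CPM (SD, n = 4). Itgav, whose product binds osteopontin, had 152.5, 64.2, 89.2 and 130.3 CPM in replicates 1 to 4, the order of Synpo. Lrp2, which encodes megalin, the endocytic receptor of the proximal tubule, had 1922.5, 1126.6, 750.6 and 1247.7 CPM. Cd44, another osteopontin receptor, had 24.2, 35.5, 32.2 and 26.1 CPM, the reverse order of Synpo. Receptor, filament and linker genes other than those with the highest and lowest CPM of their list were singled out after their values were seen.

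Of 27 other epithelial injury genes listed, 23 were in the table, 9 were highest in replicate 2 and 3 lowest (Timp2, Igfbp7 and Vcam1), against 21.3% and 31.5% of all genes. Variation beyond counting error was called for 22, against 69.5% of all genes. Limma called 0 of them, with 6 at an unadjusted p under 0.05, and the fixed-trend statistic called 6, against 5.44% and 7.53% of all genes. The list ran from Sox9 at 7.29 ± 1.94 CPM to Igfbp7 at 1763.4 ± 283.0 CPM (SD, n = 4). Of the 6 called at the fixed trend, 1 was highest in replicate 2, namely Lgals3, the galectin-3 gene, which had the order of Des and Spp1 with 16.4, 57.9, 34.9 and 41.8 CPM. The others had other orders. Vcam1, the gene of a leukocyte adhesion molecule, was highest in replicate 4 and lowest in replicate 2, with 41.6, 28.6, 50.3 and 108.7 CPM. Fn1, the fibronectin gene, had 222.4, 568.9, 534.5 and 691.5 CPM, and it and Cp, the ceruloplasmin gene, were highest in replicate 4. The complement gene C3 was highest in replicate 3 and Dcdc2 in replicate 1. The order of Des and Spp1 was also that of S100a6, Timp1, S100a11, Tnfrsf12a and Cdkn1a, none of which was called at the fixed trend. S100a6 had 222.7, 446.2, 314.3 and 398.4 CPM and was among the 6 genes at limma's unadjusted p under 0.05, where Dcdc2 was not. The cell cycle inhibitor gene Cdkn1a, at 184.2 ± 1.4 CPM, did not pass the counting-error test, which 1 of the 23 missed. The genes of these orders were named after their values were seen.

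Markers of the cell types that a sieved preparation can hold were summed in each animal. The podocyte list, with 19 of 19 genes in the table, summed to 13689.4, 7722.9, 9986.4 and 12085.6 CPM in replicates 1 to 4 and was lowest in replicate 2. The proximal tubule list of 14 genes summed to 11007.9, 8311.8, 5312.8 and 8048.0 CPM, and the loop and distal nephron list of 11 genes to 740.7, 572.8, 680.9 and 646.4 CPM. Neither tubular sum was highest in replicate 2, and the second, of which Umod had the highest CPM, was lowest there. The parietal epithelium list of 9 genes ran from 585.9 CPM in replicate 3 to 792.1 CPM in replicate 4, with 706.0 CPM in replicate 2. The mesangial and smooth muscle list of 11 genes was lowest in replicate 2 by its sum, at 1579.0 CPM, and lowest in replicate 1 by its mean log2 CPM, at 6.56 against 6.69 in replicate 2. The glomerular endothelium list of 9 genes was highest in replicate 3, at 7581.5 CPM. The macrophage and leukocyte list of 10 genes ran from 1175.1 CPM in replicate 1 to 1491.3 CPM in replicate 2, so its sum was highest in the same animal as the 7 genes. By its mean log2 CPM it was highest in replicate 3, at 5.68 against 5.63 in replicate 2. The genes with the highest and lowest mean CPM were Podxl and Magi2 in the podocyte list, Slc34a1 and Slc5a12 in the proximal tubule list, Umod and Cldn16 in the loop and distal nephron list, and Cd9 and Scin in the parietal list. They were Pdgfrb and Pdgfra in the mesangial list, Kdr and Plvap in the endothelial list, and Cd74 and Cd3e in the leukocyte list. No listed gene in the table was at 0 reads, and the fewest reads of any gene in any animal were 2.

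The sums follow the genes with the highest CPM, and single markers within the lists were highest in replicate 2, as were the 7 genes and 21.3% of all genes; those that follow were named after their values were seen. In the mesangial and smooth muscle list 4 of 11 genes were highest in replicate 2 and 6 lowest. The 4 were the contractile genes Acta2, Myh11 and Tagln, and the receptor gene Pdgfra. Acta2 had the order of Des, with 57.0, 103.5, 79.5 and 82.6 CPM in replicates 1 to 4, and Myh11, the smooth muscle myosin heavy chain gene, had 32.4, 77.6, 70.2 and 61.9 CPM. In the loop and distal nephron list 2 of 11 genes were highest in replicate 2, Slc12a3 and Aqp2, the gene of the collecting duct water channel. Aqp2 had 24.1, 59.4, 46.1 and 33.8 CPM, a 2.46-fold range. Other collecting duct genes of the list were highest elsewhere: Aqp3 in replicate 1, with 42.2, 30.2, 21.2 and 25.4 CPM, Scnn1g and Atp6v1b1 in replicate 3, and Slc4a1 in replicate 4. At the fixed trend Myh11, Aqp2 and Aqp3 were called and Acta2 was not. In the proximal tubule list 2 of 14 genes were highest in replicate 2, Miox and Pck1, and in the endothelial list 2 of 9, Plvap and Tek. None of these was called at the fixed trend. Over the whole lists, the fixed trend called 11 of 19 podocyte and 11 of 14 proximal tubule genes. It called 4 of 11 mesangial and smooth muscle genes, 2 of 11 loop and distal nephron genes and 2 of 9 parietal genes. Of endothelial genes it called 0 of 9, and of leukocyte genes 3 of 10. The share over all genes was 7.53%.

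In the parietal list 5 of 9 genes were highest in replicate 2, namely Pax2, Pax8, Cd44, Krt7 and Scin, and its mean log2 CPM was highest there, at 5.10 against 5.08 in replicate 1. Pax8 had 32.0, 38.9, 22.7 and 31.4 CPM, and none of the 5 was called at the fixed trend. Krt7 and Cd44 were also in the lists of filament and receptor genes. In the leukocyte list 5 of 10 genes were highest in replicate 2, namely Cd68, Cd74, C1qa, C1qb and Mrc1, while Ptprc, Csf1r, Itgam and Cd3e were highest in replicate 3 and Lyz2 in replicate 4. Cd74, with 653.4, 777.4, 616.2 and 566.0 CPM, had the highest CPM of the list in each animal. The complement genes C1qa, with 71.9, 83.7, 47.9 and 54.0 CPM, and C1qb, with 50.5, 62.4, 34.3 and 38.8 CPM, had the order of Lcn2 and were called at the fixed trend, as was Ptprc. All lists but that of podocytes thus held genes that were highest in the same animal as the 7 genes, and their part in the result was not tested.

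**Figure D4:**
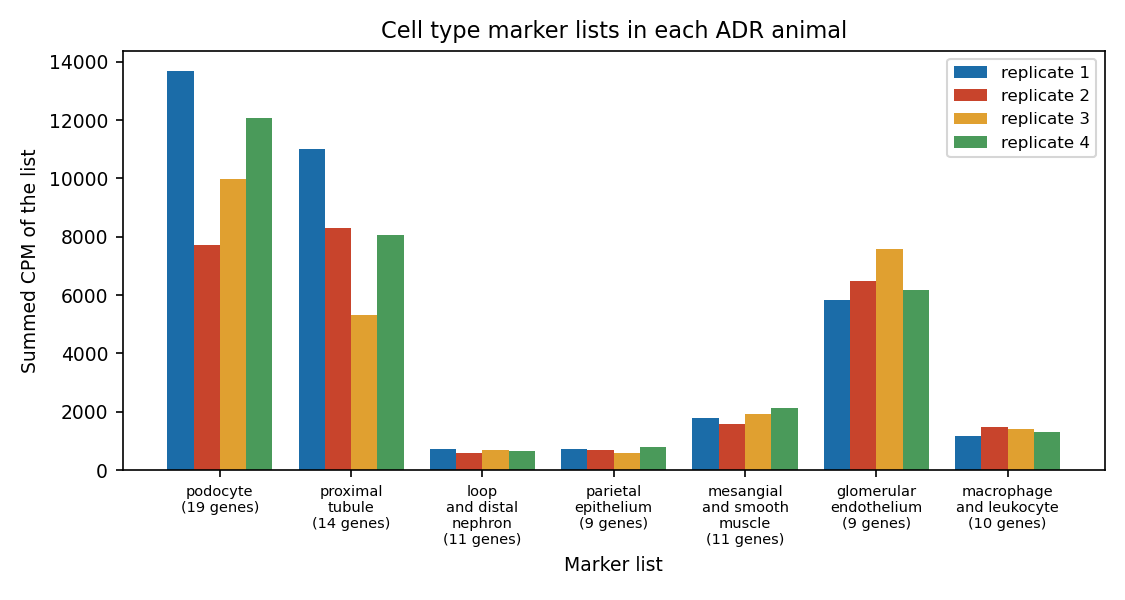
Summed CPM of 7 cell type marker lists (vertical axis, from 0) in each ADR animal, with the number of genes in the table under each list. The podocyte bar is lowest in replicate 2, the tubular bars are highest in replicate 1, and the macrophage and leukocyte bar is highest in replicate 2 by a small margin.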

How the data were processed

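Per the labels' protocols, stranded poly(A) libraries of sieved glomeruli were sequenced on an Illumina instrument, over 2 lanes per the series' design text. The authors deposited 1 table of log2 values; HISAT2, featureCounts, Subread and limma and the build Rnor_6.0 are named in the submitters' processing notes, without role or version, and the use of strand and the filter on low genes are not given in the sources used here. From the values, the deposited log2 values are log2 CPM with 0.5 reads added: 100% of values came out as whole reads (tolerance 0.05 reads, largest deviation 0.00071). Of 13265 rows, 4 with displaced cells were left out; 0 value columns belonged to no sample.

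Counting error was tested by chi-square on recovered reads, and excess variance by limma 3.58.1 (R 4.3.3, intercept only, abundance trend); p-values were adjusted by Benjamini-Hochberg over all 13261 genes, threshold 0.05. The negative binomial goodness-of-fit test was planned for deposited counts and was not run, as the deposited unit is log2. A Pearson statistic on the recovered reads took its place, at a dispersion trend set in 40 bins of mean reads. It takes a single dispersion for genes of like abundance as known, so genes more dispersed than the trend are called. Trimmed-mean and median-of-ratios factors were computed from their formulas. The methods were tested on simulated data. Poisson intervals (95%) cover counting error only. Genes named are all members, Synpo, Nphs1, the 3 closest profiles of each member and, per list, the genes with the greatest and smallest mean CPM, with exceptions stated. 1 podocyte gene is not reported here and was left out of the podocyte list. Members and lists were chosen with earlier results of these data known.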

Additional observations from a re-analysis of the deposited data

Results flagged for a closer look

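Of 32 results examined (levels of 10 genes and 22 ratios), 2 had a single animal apart from the other 3, with a gap over the whole range above Dixon's 95% critical value; chance flags about 1 in 20, and 5.08% of all genes met the criterion. Both are ratios to Nphs1 and both are set apart by replicate 2. Nes minus Nphs1 was 0.72 there and 0.40, 0.41 and 0.41 in replicates 1, 3 and 4 (log2, gap over range 0.954). Lcn2 minus Nphs1 was -4.95 there and -7.07, -7.40 and -7.30 in replicates 1, 3 and 4 (gap over range 0.863). The levels of Nes and of Lcn2 by themselves did not pass this criterion, although the Poisson interval of Lcn2 in replicate 2 lay above those of the other 3 animals.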

How the results depend on the processing

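The number of genes ordered opposite to Synpo in every pair of animals was 2; it was 1 with trimmed-mean factors and also 1 with factors from median ratios, and leaving out a replicate gave 2 to 5, with 5 without replicate 3 and 5 without replicate 4, where only 3 pairs remain. Against Nphs1 the numbers were necessarily the same, since it had the order of Synpo: 1 with either set of factors, and 2 to 5 without a replicate. The number called at the fixed dispersion trend was 3 and ran from 1 to 3 without a replicate, the 1 being without replicate 2. Over all genes, that test called 999 genes, and 663, 607 and 637 without replicates 1, 3 and 4; fewer samples enter those fits. Variation beyond counting error was called for 8 genes under each scaling and for 7 or 8 without a replicate. Limma called 0 of the 8 under every alternative run, with 1 to 3 at an unadjusted p under 0.05. Mean log2 CPM of Krt18 moved from 1.94 to 2.27 on the log2(CPM + 1) scale, by construction at so low a level. Scalings shifted all genes of a library by at most 0.05 (log2). The planned goodness-of-fit test was not run. No paired analysis was possible because there is a single group. Few reads limit Krt18 and Lcn2.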
